A study of Macaca mulatta with 6 samples.

Results

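NMB, NPY, PENK, ADM, VIP, GAL, SST and TAC1 encode the precursors of secreted peptides that act in or around the adrenal gland. The members are all probe sets whose annotation names 1 of these 8 genes, which gave 9 probe sets, 2 of them for GAL, among 22215 probe sets that are not controls and 11963 genes named alone by a probe set. All 8 symbols are present in the macaque gene table. The members were chosen by their known role as peptide precursors and with the 24-h fits of these arrays known, NMB having been selected on its small p there, so the values of the 8 genes over the clock times are given as a description with no test.

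Left adrenal glands came from female rhesus macaques that had been ovariectomized. They were frozen at 6 clock times 4 h apart, with 1 animal and 1 Affymetrix human expression array per time. All animals had lived for 3 months in single cages with 12 h light and 12 h dark per day and had been fasted for 12 h. The animals taken at 3 AM and 7 AM were aged 12 years, and the 11 AM animal 10 years plus 37 days. The 3 PM animal was 8 years plus 106 days old, the 7 PM animal 7 years plus 82 days and the 11 PM animal 8 years plus 70 days. Age and clock time therefore cannot be told apart, and the sources used here do not say when lights went on. Because no time has a second animal, the only measures of error are the scatter of single animals around a fitted 24-h cosine and the scatter of 3 animals within a part of the day. Every SE given below uses the moderated variance of limma, which draws the scatter of each gene toward that of all genes. For ADM the moderated SD of the cosine fit was 0.23 and its own residual SD 0.11. Whole glands were hybridised, so markers of cortex and medulla were both present at every time. The values are intensities on a linear scale, brought by the authors to a common level on each array. Median intensity ran from 154 to 173.1 over the arrays. Precision is limited throughout by having 6 arrays.

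Peptide hormones and neuropeptides are cut from longer precursors inside the secretory pathway, packed into dense-core vesicles and released together with other vesicle contents. In the adrenal medulla, chromaffin cells store several of them with adrenaline and noradrenaline, and nerve fibres that reach cortex and medulla carry others. Most act on receptors that couple to G proteins, and several are known to modulate steroid or catecholamine release.

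NMB encodes neuromedin B, a bombesin-like peptide that acts on smooth muscle and endocrine cells. Its intensity was 290.3 at 3 AM, 209 at 7 AM, 309 at 11 AM, 664 at 3 PM, 840.1 at 7 PM and 819.7 at 11 PM. The 3 PM, 7 PM and 11 PM arrays thus stood between 664 and 840.1, whereas the 3 AM, 7 AM and 11 AM arrays stood between 209 and 309, and the 2 sets of arrays did not overlap. The lowest of the later arrays was 2.15 times the highest of the earlier ones. The later arrays are also those of the 3 youngest animals.

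The 2 sets were formed after the NMB values were seen. Separation of these sets in this direction was seen in 6.04% of the 7164 genes tested. The fitted cosine had its peak at 19.2 h and a peak 4.60 times the trough, a log2 difference of 2.20 ± 0.29 (SE of the fit). When age was added to the fit, it was 1.03 ± 1.04. The residual SD around the NMB curve was 0.21 on the log2 scale. In the order of the 6 levels, 7 PM and 11 PM differed by 0.04 and 11 AM and 3 AM by 0.09, both less than this spread. The step between 3 PM and 11 AM was 1.10.

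**Figure D1:**
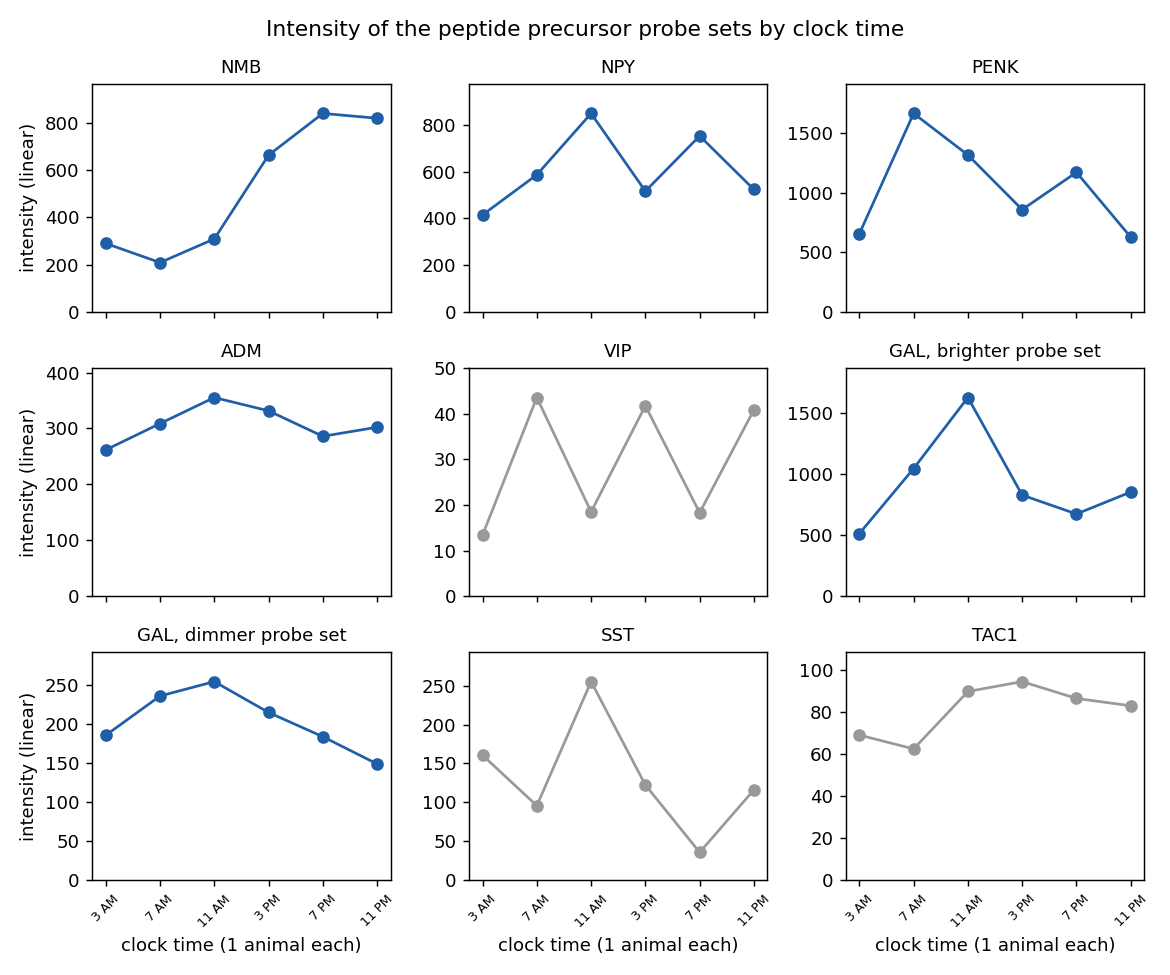
Linear intensity (y axis, from 0) of each of the 9 probe sets against clock time (x axis), with 1 animal per point; blue probe sets lie above the level filter and grey ones below it. NMB steps up between 309 at 11 AM and 664 at 3 PM, while PENK is highest at 7 AM and both GAL probe sets are highest at 11 AM.

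PENK, GAL and NPY are the precursors of peptides that chromaffin cells and adrenal nerve fibres are known to contain, and their profiles differed from that of NMB. PENK encodes proenkephalin, the source of the opioid enkephalins. It had 656 at 3 AM, 1664 at 7 AM, 1316 at 11 AM, 858 at 3 PM, 1171 at 7 PM and 627 at 11 PM. PENK was thus highest in the early day and lowest around midnight, with a second high value at 7 PM. The day arrays (7 AM, 11 AM and 3 PM) averaged 1279 ± 404 and the night arrays (7 PM, 11 PM and 3 AM) 818 ± 306 (SD, n = 3 each), with overlapping values. The fitted peak was at 10.7 h and 2.02 times the trough (log2 1.01 ± 0.46, SE), and the residual SD of 0.53 exceeded every gap between neighbouring levels. Without the 7 PM array the log2 difference was 1.53, and without the 11 PM array it was 0.82. Without the 7 AM array it was 0.84 with the fitted peak at 13.3 h. With age in the fit it was 1.94 ± 1.81 (SE).

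GAL encodes galanin, a peptide of sympathetic and sensory neurons and chromaffin cells, and its 2 probe sets were both highest at 11 AM. The brighter one read 513 at 3 AM, 1048 at 7 AM, 1631 at 11 AM, 829.8 at 3 PM, 674 at 7 PM and 855 at 11 PM. The dimmer one read 186 at 3 AM, 236 at 7 AM, 255 at 11 AM, 215 at 3 PM, 184 at 7 PM and 149 at 11 PM. On the dimmer probe set all 3 day arrays stood above all 3 night arrays, as in 5.61% of all genes tested. On the brighter one the 855 at 11 PM exceeded the 829.8 at 3 PM. They also disagreed on the lowest time, which was 3 AM on the brighter and 11 PM on the dimmer. The fitted peaks lay at 11.1 h and 10.5 h and were 2.09 and 1.63 times the trough. The residual SD was 0.50 on the brighter and 0.07 on the dimmer. Without the 11 AM array the log2 difference of the brighter probe set was 0.55, and without the 11 PM array it was 1.75, against 1.06 with all arrays. With age in the fit it was 4.61 ± 1.14 (SE) with a peak at 7.08 h, although the highest array was only 3.18 times the lowest.

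NPY encodes neuropeptide Y, a vasoconstrictor peptide stored with noradrenaline. It read 415 at 3 AM, 587 at 7 AM, 849 at 11 AM, 517 at 3 PM, 753 at 7 PM and 524 at 11 PM. NPY therefore had separate high values at 11 AM and 7 PM with a low value between them, and a single 24-h curve described it poorly (R2 0.37). The day arrays averaged 651 ± 175 and the night arrays 564 ± 172 (SD, n = 3 each). Without the 3 PM array the log2 peak-to-trough difference was 1.21, and without the 3 AM array 0.33, against 0.59 with all arrays.

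ADM encodes adrenomedullin, a vasodilator peptide made by chromaffin cells, cortical cells and blood vessels. Its intensity was 262 at 3 AM, 309 at 7 AM, 355 at 11 AM, 331 at 3 PM, 286 at 7 PM and 302 at 11 PM. ADM was the flattest of the genes above the level filter: the highest array was 1.36 times the lowest, against a median of 1.70 over all genes tested. All 3 day arrays lay above all 3 night arrays, although the gap was only between 309 and 302. The day arrays averaged 332 ± 23.3 and the night arrays 283 ± 20.4 (SD, n = 3 each). Separation of day above night was present in 5.61% of all genes tested.

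VIP, SST and TAC1 lay below the level filter, a mean log2 value of 7.30 that corresponds to an intensity of about 157, and were not fitted among the genes tested. VIP encodes vasoactive intestinal peptide, known in adrenal nerve fibres and some chromaffin cells. It read 13.4 at 3 AM, 43.6 at 7 AM, 18.5 at 11 AM, 41.8 at 3 PM, 18.3 at 7 PM and 40.9 at 11 PM. These low values alternated between neighbouring times, and R2 of the cosine was 0.02.

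SST encodes somatostatin, an inhibitor of hormone release. It read 161 at 3 AM, 95.8 at 7 AM, 255 at 11 AM, 122 at 3 PM, 35.8 at 7 PM and 116 at 11 PM. Its highest array was 7.13 times its lowest, but the residual SD was 0.94 on the log2 scale and the extremes at 11 AM and 7 PM stood as single animals. TAC1 encodes the precursor of substance P and neurokinin A, peptides of sensory nerve fibres. It read 69.0 at 3 AM, 62.4 at 7 AM, 89.7 at 11 AM, 94.4 at 3 PM, 86.4 at 7 PM and 82.9 at 11 PM. TAC1 was thus lowest in the 2 animals aged 12 years, and its other 4 values lay within a narrow range. Signals this low can hold much background, whose size the sources used here do not give.

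Over the 5 members above the level filter, the highest array was at least 2 times the lowest in 4, which was the case in 27.9% of all genes tested. Their median log2 peak-to-trough difference was 1.01, against 0.43 over all genes tested. NMB, selected on its small p in the 24-h cosine fit, is counted in both, so neither is support for the group. Apart from NMB, the differences were 1.06 for GAL, 1.01 for PENK, 0.59 for NPY and 0.33 for ADM. By limma's moderated F test of the 24-h cosine 5.56% of all genes had an unadjusted p under 0.05, and in the contrast of day against night arrays 5.39% did. In both fits 0% of all genes (0 of 7164) passed after Benjamini-Hochberg adjustment. No p of the members is given, since they were chosen with these fits known. Of the 5 members 4 were higher by day in the mean and 1 was lower, where 49.1% of all genes were higher. The lowest array was the one at 3 AM in 3 of the 5, NPY, ADM and GAL, as in 17.5% of all genes.

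The daytime difference on the log2 scale was 0.75 ± 0.29 for GAL, 0.65 ± 0.32 for PENK, 0.23 ± 0.18 for ADM, 0.22 ± 0.28 for NPY and -0.74 ± 0.50 for NMB (SE of the fit). The median over these 5 was 0.23 and that over all genes tested -0.004. The NMB difference ran from -1.24 without the 3 AM array to -0.37 without the 7 AM array, its step lying within the day, between 11 AM and 3 PM. The dimmer GAL probe set had a daytime difference of 0.45. Without the 11 AM array the difference was 0.48 for the brighter GAL probe set and 0.0090 for NPY, and without the 7 PM array it was 0.45 for NPY.

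**Figure D2:**
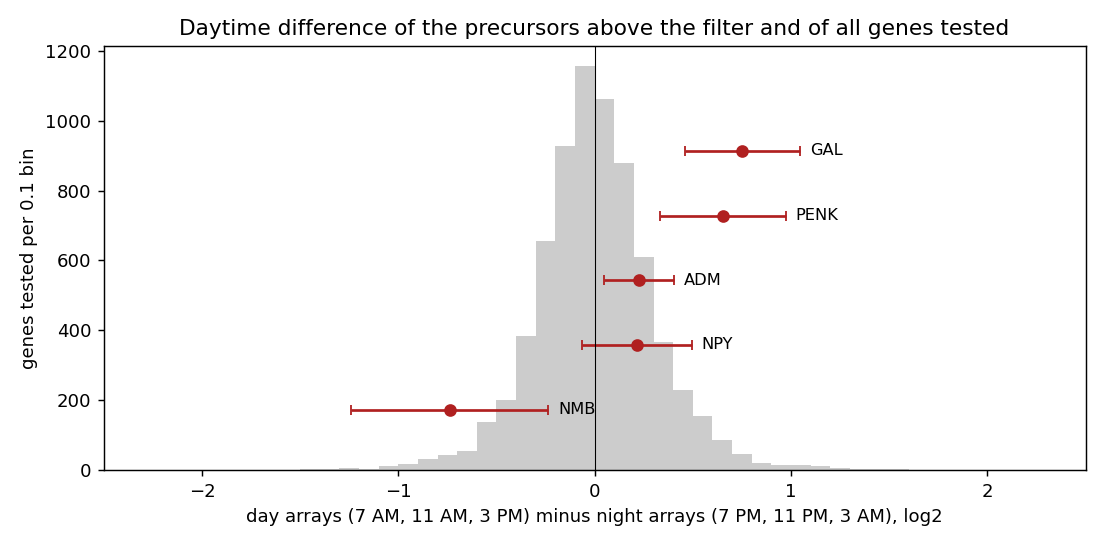
Histogram of the log2 difference of day minus night arrays (x axis) over the 7164 genes tested, in bins of 0.1 (y axis, genes per bin); red points are the 5 precursors above the level filter with the SE of the fit, at heights without meaning. GAL (0.75) and PENK (0.65) lie in the right tail and NMB (-0.74) in the left tail, with a wide error for NMB.

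Markers of the medulla, like PENK, stood high at 7 AM and low at 3 AM and 11 PM. All 13 chromaffin markers tested, of 18 listed, were higher by day in the mean, where 49.1% of all genes were. Their median log2 difference was 0.59. Of the 13, 12 lay below their own mean at 3 AM and 11 at 11 PM, shares that were not computed for all genes. By limma 5 of these 13 were higher by day at an unadjusted p under 0.05, against 2.95% of all genes tested, and 0 after adjustment. The summed intensity of the 16 chromaffin markers on the array was 30440 to 47250 by day and 19360 to 29140 by night, and none was at 0. TH, which makes the catecholamine precursor DOPA, read 1903 at 3 AM, 8245 at 7 AM, 4775 at 11 AM, 5047 at 3 PM, 3748 at 7 PM and 2860 at 11 PM. In whole glands, fewer cells of a type and less RNA per cell cannot be told apart.

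Each array was also set against the mean of the chromaffin markers or of the cortex markers, a comparison added after the values were seen. Either step shifts the daytime difference of every gene by the same amount, since the mean of the markers themselves differed by 0.62 for chromaffin and -0.30 for cortex. Against the chromaffin mean the daytime difference was 0.04 ± 0.34 for PENK, 0.13 ± 0.35 for GAL, -0.40 ± 0.34 for NPY, -0.39 ± 0.33 for ADM and -1.36 ± 0.41 for NMB (SE). Against the cortex mean it was 0.95 ± 0.35 for PENK, 1.05 ± 0.34 for GAL, 0.52 ± 0.33 for NPY, 0.53 ± 0.32 for ADM and -0.44 ± 0.40 for NMB (SE). The log2 peak-to-trough difference against the chromaffin mean was 2.56 ± 0.59 for NMB, 0.38 ± 0.59 for PENK and 0.35 ± 0.59 for GAL (SE). These SEs are equal, so they reflect a variance common to the genes and not the scatter of each. Against the cortex mean it was 1.68 ± 0.41 for NMB, 1.56 ± 0.44 for PENK and 1.58 ± 0.45 for GAL (SE). The 10 cortex markers stood highest at 7 PM (0.37 above their mean on the log2 scale) and 11 PM (0.34). The summed intensity of the cortex markers was 70350 to 75230 by day and 60370 to 94670 by night, with 9 of 10 lower by day in the mean, where 49.1% of all genes were higher. Of these 1, SULT2A1, was lower at an unadjusted p under 0.05, against 2.44% of all genes.

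Nerve fibre and neuron markers, several of which chromaffin cells also express, were higher by day in 9 of 10 tested genes, by a median of 0.35, where 49.1% of all genes were higher. Of the 10, 4 were higher at an unadjusted p under 0.05, against 2.95% of all genes, and 0 after adjustment. Their summed intensity was 10390 to 11060 by day and 7978 to 10780 by night. ELAVL4, a neuronal RNA-binding protein gene, read 216 at 3 AM, 837.5 at 7 AM, 879 at 11 AM, 714 at 3 PM, 622 at 7 PM and 369 at 11 PM. Its daytime difference of 1.13 was the largest of the 10, whereas UCHL1 had -0.02, GAP43 0.03 and TUBB3 0.13.

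Cortex markers, like NMB, were highest at 7 PM and 11 PM. On the log2 scale they were lowest at 3 AM (-0.27) and below their mean at 3 PM (-0.14). NMB was lowest at 7 AM and above its mean at 3 PM. Smooth muscle and adipocyte markers differed from NMB on some arrays and shared its direction on others. The 6 smooth muscle markers tested stood 0.65 above their mean at 3 AM and 0.52 above it at 7 PM but at -1.04 from it at 11 PM. NMB was low at 3 AM and high at both evening times. At 7 AM (-0.37), 11 AM (-0.08) and 3 PM (0.32) these markers lay on the same side of their mean as NMB. Adipocyte markers summed to 1987 to 3160 by day and 3156 to 4730 by night, and 2 of the 4 tested, LPL and FABP4, were lower by day at an unadjusted p under 0.05, against 2.44% of all genes. The adipocyte markers were highest at 3 AM, where NMB was low. Like NMB they stood below their mean at 7 AM and above it at 7 PM and 11 PM, unlike on the other arrays. Endothelial markers summed to 3007 to 4277 by day and 3131 to 4058 by night. Macrophage markers summed to 1370 to 1590 by day and 1224 to 1640 by night. In limma's daytime contrast 0 of 7 endothelial genes and 1 of 4 macrophage genes had an unadjusted p under 0.05, against 5.39% of all genes. The macrophage gene was CD163, higher by day, while the other 3 tested were lower by day in the mean. Schwann and glial markers summed to 855 to 931 by day and 779 to 1241 by night. Of 3 tested, 1, SOX10, was lower by day at that threshold, against 2.44% of all genes. No marker of these lists was at 0 on any array. The part of cell composition in the members' values was not tested.

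**Figure D3:**
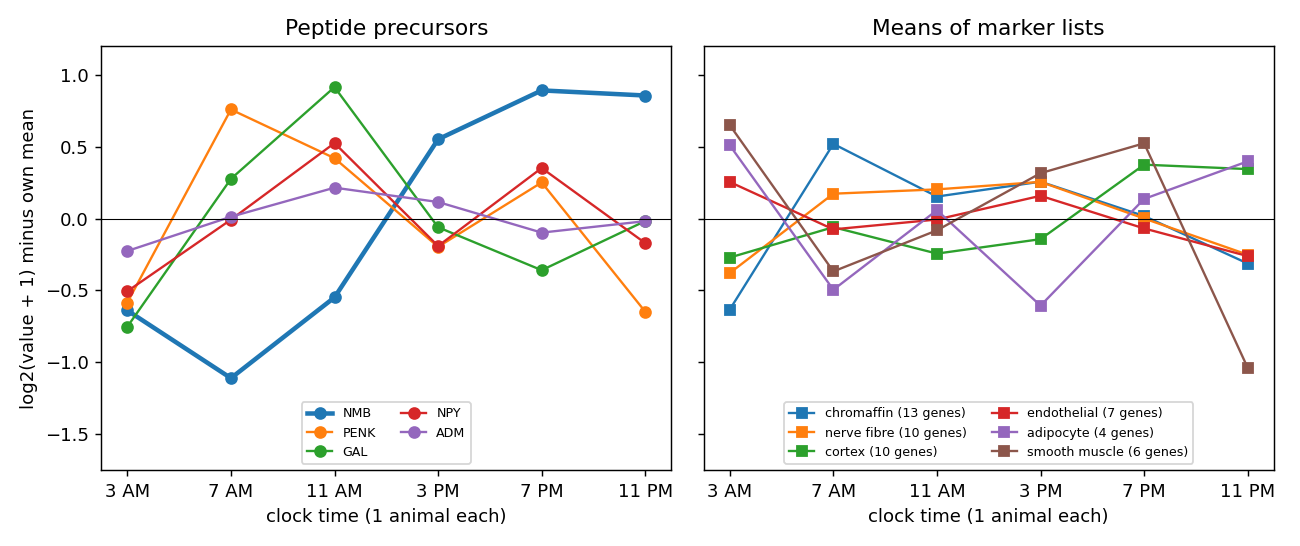
Log2(value + 1) minus the mean of the 6 arrays (y axis) by clock time (x axis) for the 5 precursors above the level filter (left) and for the mean of the tested genes of 6 marker lists (right), 1 animal per time. PENK and the chromaffin markers share their high value at 7 AM and low values at 3 AM and 11 PM, while NMB is lowest at 7 AM and high at 7 PM and 11 PM. The cortex markers are also highest at 7 PM and 11 PM.

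Of 29 listed receptor genes of the 8 peptides 27 were on the array and 10 passed the level filter. In 6 of these 10 the highest array was at least 2 times the lowest, against 27.9% of all genes tested. Their median fitted log2 peak-to-trough difference was 0.29, below the 0.43 of all genes tested. By limma's moderated F test 1 of the 10 had an unadjusted p under 0.05 for the cosine, against 5.56% of all genes, and 0 after adjustment (lowest adjusted p = 0.836). In the daytime contrast 1 was higher and 0 were lower by day at that threshold, against 2.95% and 2.44% of all genes. After adjustment 0 passed.

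The gene for the neuromedin B receptor, NMBR, lay below the filter and read 168 at 3 AM, 33.2 at 7 AM, 122 at 11 AM, 185 at 3 PM, 151.5 at 7 PM and 204 at 11 PM. NMBR and NMB thus shared their lowest array, 7 AM, a single animal, and the share of all genes lowest there was not computed. Their courses differed elsewhere: NMBR was higher at 3 AM than at 7 PM, where NMB rose from 290.3 to 840.1. GRPR, the receptor of gastrin-releasing peptide that also binds neuromedin B, was nearly level, with 304 to 411 over the 6 arrays. The NPY receptor genes NPY1R and NPY5R ranged over 371 to 566 and 255 to 608, and their log2 peak-to-trough differences were 0.13 ± 0.34 and 0.62 ± 0.41 (SE). OPRM1, the mu opioid receptor gene, ranged over 130.3 to 314, VIPR1, a VIP receptor gene, over 163 to 352, and the unadjusted cosine p by limma was 0.984 and 0.849.

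SSTR2, a somatostatin receptor gene, was the receptor past the unadjusted threshold in the cosine fit. It read 194 at 3 AM, 311 at 7 AM, 153 at 11 AM, 121.5 at 3 PM, 115 at 7 PM and 125 at 11 PM. SSTR2 was thus higher in the animals aged 12 years than in all younger ones, with a fitted peak at 6.34 h and 2.44 times the trough (log2 1.29 ± 0.32, SE; unadjusted p = 0.0135, adjusted p = 0.836 by limma). Without the 7 AM array or with age in the fit the unadjusted threshold was not passed, and a second probe set of SSTR2, below the level filter, had its fitted peak at 15.3 h.

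Adrenomedullin signals through CALCRL, which needs a RAMP partner to bind its ligand. RAMP1, the partner that turns CALCRL into a receptor for calcitonin gene-related peptide, was higher by day. It read 653 at 3 AM, 1284 at 7 AM, 1435 at 11 AM, 1056 at 3 PM, 939.9 at 7 PM and 968 at 11 PM. All 3 day arrays thus lay above all 3 night arrays, as in 5.61% of all genes tested. The log2 difference was 0.57 ± 0.23 (SE; unadjusted p = 0.0337, adjusted p = 0.829 by limma), and it did not pass the unadjusted threshold without the 3 AM, 7 AM or 11 AM array nor with arrays centred on the median or with no level filter. RAMP2 and RAMP3, the partners that make CALCRL an adrenomedullin receptor, differed by 0.03 ± 0.25 and -0.13 ± 0.18, and CALCRL by -0.07 ± 0.29 (SE).

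Enzymes that cut, trim, amidate or degrade peptides gave 16 tested genes of 26 listed, with a median peak-to-trough difference of 0.50. Of these, 1 had an unadjusted p under 0.05 for the cosine by limma, against 5.56% of all genes. In the daytime contrast 2 were higher by day at that threshold, against 2.95% of all genes. None was lower by day at that threshold, and 0 passed adjustment in either fit. The 2 genes were PCSK1N and CPE.

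PCSK1N encodes proSAAS, an inhibitor of prohormone convertase and itself a vesicle peptide precursor. Its intensity was 1152 at 3 AM, 2501 at 7 AM, 2174 at 11 AM, 2169.8 at 3 PM, 1068 at 7 PM and 1509 at 11 PM. All 3 day arrays lay above all 3 night arrays, as in 5.61% of all genes tested. The log2 difference was 0.89 ± 0.20 (SE, unadjusted p = 0.00188, adjusted p = 0.759 by limma). This unadjusted call held in 15 of 15 alternatives, with p between 0.000547 and 0.00889. PCSK1N is also known from chromaffin cells, whose markers were higher by day as well. The part of cell composition in the PCSK1N values was not tested.

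CPE, the carboxypeptidase that trims basic residues from peptide ends, read 878 at 3 AM, 1276 at 7 AM, 1495 at 11 AM, 981 at 3 PM, 855 at 7 PM and 754 at 11 PM. It differed by 0.57 ± 0.21 between day and night (SE; unadjusted p = 0.0247, adjusted p = 0.817 by limma) and its fitted peak, at 10.0 h, was 1.91 times the trough (unadjusted p = 0.0255, adjusted p = 0.836). Both CPE calls were lost without the 7 AM, 11 AM or 11 PM array, and that of the cosine also with no level filter and with age in the fit. A second CPE probe set, below the level filter, had a daytime difference of 0.74 and a peak at 10.8 h. DPP3, a dipeptidyl peptidase that degrades enkephalins, peaked at 18.4 h with a log2 difference of 0.78 ± 0.30 (SE; unadjusted p = 0.0906, adjusted p = 0.836 by limma). PAM amidates peptide ends, as neuromedin B, NPY, VIP and adrenomedullin require. Its brightest probe set varied little, with 4771 to 6652 over the 6 arrays and a daytime difference of -0.19 ± 0.19 (SE). Its dimmer probe sets, also above the level filter, ranged over 1529 to 1915 and 242 to 654. Their daytime differences were 0.06 and 0.26. SCG5, a chaperone of prohormone convertase, had 328 to 708 and a difference of 0.18 ± 0.28 (SE).

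**Figure D4:**
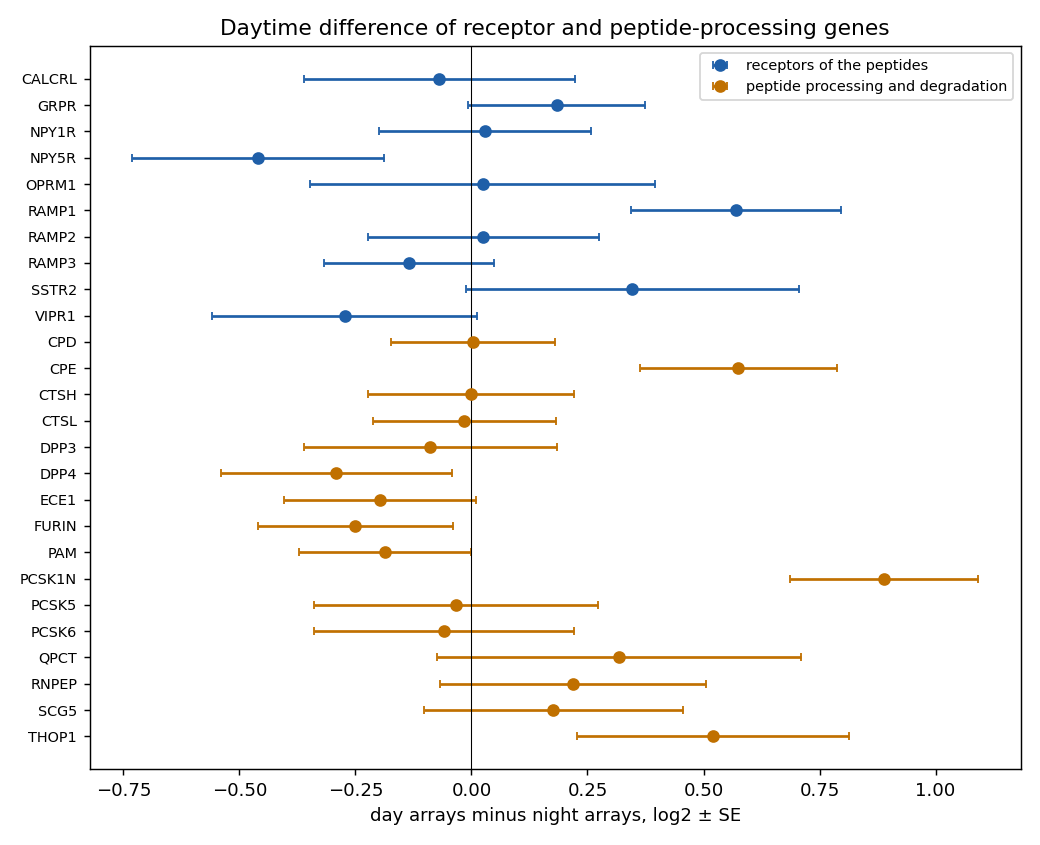
Log2 difference of day minus night arrays (x axis, point) with its SE (bar) for the 10 tested receptor genes and the 16 tested genes of peptide processing and degradation (y axis). PCSK1N (0.89) lies furthest to the right, followed by CPE (0.57), RAMP1 (0.57) and THOP1 (0.52), and most other bars cross 0.

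Other peptide precursors supplied 7 tested genes of 44 listed, with a median peak-to-trough difference of 0.71 on the log2 scale. Of these 1 had an unadjusted p under 0.05 for the cosine, against 5.56% of all genes, and 0 in the daytime contrast, and 0 passed adjustment. ADM2, which encodes intermedin, a relative of adrenomedullin, read 114 at 3 AM, 290.4 at 7 AM, 421 at 11 AM, 306.5 at 3 PM, 439 at 7 PM and 174 at 11 PM. It was lowest at 3 AM and 11 PM, with a fitted peak at 14.1 h and 3.07 times the trough (log2 1.62 ± 0.47, SE; unadjusted p = 0.0279, adjusted p = 0.836 by limma). The unadjusted call was lost without the 3 AM, 11 AM or 11 PM array and with no level filter.

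ADCYAP1, the precursor of PACAP, a splanchnic nerve transmitter to chromaffin cells, peaked at 16.7 h (log2 0.81 ± 0.30, SE) and did not pass. NPPA, the precursor of atrial natriuretic peptide, a suppressor of aldosterone, had its fitted peak at 19.2 h, where that of NMB also lay. It read 325 at 3 AM, 271.5 at 7 AM, 364 at 11 AM, 407 at 3 PM, 445 at 7 PM and 478 at 11 PM. Like NMB it was lowest at 7 AM and higher on all 3 later arrays than on all 3 earlier ones. That separation was seen in 6.04% of all genes tested. Its log2 difference of 0.71 ± 0.27 (SE; unadjusted p = 0.0872, adjusted p = 0.836 by limma) did not pass the threshold.

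Among the other 7163 genes tested, those whose log2 values correlated most closely with NMB over the 6 arrays were NECAP2 (r = 0.985), which encodes a clathrin-coat protein, MVD (0.983), an enzyme of the mevalonate pathway, IARS1 (0.983), isoleucyl-tRNA synthetase, NIT1 (0.978), a nitrilase-like protein, and RPS6KB1 (0.978), a ribosomal S6 kinase. Their fitted peaks lay between 18.9 h and 19.5 h. Their amplitudes were smaller, with peaks 1.26 to 2.41 times the trough against 4.60 for NMB. MVD read 140.5 at 3 AM, 124 at 7 AM, 165 at 11 AM, 217.5 at 3 PM, 291 at 7 PM and 273 at 11 PM, the same order of arrays as NMB. In all 75 genes (1.05%) had an r above 0.9 with NMB. All r values here rest on 6 arrays from the same animals and were picked as the highest among all genes tested, so they describe likeness only.

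The closest profiles to NPY were those of KPNB1, an importin (r = 0.990), and DCTPP1, a nucleotide pyrophosphatase (0.989). For PENK they were TMED1, a transport protein of the early secretory pathway, and UBE3A, a ubiquitin ligase (both 0.984). For ADM they were the receptor gene ADGRG3 (0.978) and FAM131A (0.977), and for GAL the splicing factor gene PRPF19 (0.986) and the autophagy gene ATG101 (0.978). The brighter GAL probe set correlated with ADM at 0.904 and with PENK at 0.60. The dimmer GAL probe set had the reverse order, with 0.61 for ADM and 0.77 for PENK. NMB correlated with PENK at -0.46 and with NPY at 0.06 over the same 6 arrays.

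ADM is induced by low oxygen and PENK, NPY, VIP and SST by cAMP in many cells, so genes of both responses were described beside them. Of 13 hypoxia-responsive genes tested, 1, the histone demethylase gene KDM3A, had an unadjusted p under 0.05 for the cosine, against 5.56% of all genes, and 0 in the daytime contrast, with a median daytime difference of -0.05. Of 10 cAMP-responsive genes, 9 were higher by day in the mean and 2, NR4A1 and NR4A2, were so at an unadjusted p under 0.05, with 0 after adjustment. Of all genes 49.1% were higher by day in the mean and 2.95% at that threshold. All 10 lay below their own mean at 7 PM, the array of a single animal, and the share of all genes that did so was not computed. SST and VIP, both below the level filter, also lay below their means there, while PENK and NPY stood above theirs. Any link of the cAMP-responsive genes to the members was not tested.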

How the data were processed

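Adrenal RNA of 6 macaques was hybridised to 1 array each. The deposited values are linear intensities per probe set, from 0.1 to 40394, which the authors had scaled to a 2% trimmed mean of 325.04 to 325.09, as the values themselves show; the sources used here do not name the software. Probes were designed on human sequence, and levels were set side by side only for the same probe set. All fits used log2(value + 1). A gene took its brightest probe set by mean out of those naming no other gene (19065 probe sets name 1 gene, 1043 several and 2107 none), and 7164 of 11963 genes had a mean at or above the median of the probe sets that are not controls. A 24-h cosine (3 residual degrees of freedom) and a contrast of day (7 AM, 11 AM, 3 PM) against night arrays were fitted with limma 3.58.1 in R 4.3.3, with p-values adjusted by Benjamini-Hochberg over the 7164 genes at a threshold of 0.05. An exact permutation test of 3 arrays against 3 cannot go below 0.1. The fits were tested on simulated data.

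The members and the gene lists (receptors, peptide processing, other precursors, hypoxia-responsive and cAMP-responsive genes, and cell type markers) were chosen with earlier results of these data known. Named genes are every probe set of the members, the tested receptors, the genes with the 3 smallest p of the cosine and the 2 smallest p of the daytime contrast in the processing and precursor lists, and the genes with the highest correlation with each tested member (5 for NMB, 2 for each other). NMBR, SCG5, PAM, TH, ELAVL4 and the other named list genes were chosen after their values were seen. Alternatives were the level filter, the pseudocount, quantile and median normalization, limma with a trend and robust prior, the treatment of probe sets, age as a covariate and each array left out.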

Additional observations from a re-analysis of the deposited data

How the results depend on the processing

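The log2 peak-to-trough difference of NMB, 2.20 with all arrays, ran from 2.04 without 11 PM to 2.48 without 7 PM and from 2.12 to 2.16 with another pseudocount or normalization. It was 1.03 with age as a covariate, 2.56 relative to the chromaffin marker mean and 1.68 relative to the cortex marker mean, the last pair chosen after seeing the data. The peak of NPY moved by over 6 h with age as a covariate (log2 1.85) and relative to the chromaffin marker mean (0.36), as did that of ADM relative to the chromaffin marker mean (0.48); the cause was not tested. In the cosine fit 398 genes had an unadjusted p under 0.05. This count was 621 when all genes were kept, 244 under the stricter level filter and 604 with each probe set fitted singly. The 386 of the daytime contrast became 605, 256 and 614 under the same changes, which alter the number of genes tested. Without single arrays these counts ran from 362 to 536 and from 350 to 439. No paired analysis was possible because there is only 1 animal per time. The background of the arrays is unknown, which leaves the level filter as the only guard for dim genes.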
